A study of Mus musculus with 96 samples.

Results

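Jam2, Kit, Spink1 and Spp1 encode proteins that mouse cells place on their surface or secrete, and they were examined in 61 single embryonic stem cells. They were chosen by name, as surface and secreted genes that rise with naive pluripotency, with earlier results of these data known, so their levels and slopes are given as a description. They are 4 of 36205 genes in the count table. All 4 passed the filter on low counts, at least 10 counts in at least 10 cells, which 10868 genes passed. Each sample is 1 cell of the wild-type E14 line, whose strain background the labels give as C57BL/6, cultured in serum/LIF, a serum medium that contains leukaemia inhibitory factor. The labels number no cultures, so cells are not replicates of the condition: no test was made and no p-value is given. The labels list 76 such wells, of which these 61 were analysed; 16 wells of 2i cells and 4 empty wells were not analysed here.

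Naive pluripotency is the state of the epiblast before implantation, held in culture by leukaemia inhibitory factor and by factors such as Esrrb, Nanog and the Kruppel-like factors. In serum, embryonic stem cells drift between this state and states closer to differentiation, so that neighbouring cells differ in these genes. Jam2 encodes junctional adhesion molecule B, an immunoglobulin-type adhesion protein of cell contacts. Kit encodes the receptor tyrosine kinase for stem cell factor, which is encoded by Kitl and is known for its part in germ cells, blood stem cells, mast cells and melanocytes. Spink1 encodes a secreted inhibitor of trypsin. Spp1 encodes osteopontin, a secreted phosphoprotein that binds integrins and CD44.

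The regulatory sequence of Spp1 is shown because the first intron of this gene holds a known paired octamer element, a sequence bound by the pluripotency factor Oct4, and the Kit start is shown for contrast in base composition. RefSeq windows on GRCm38.p6, from 250 bases before to 50 after a start, were found for 2 of the 4 genes. Capitals mark the octamer ATGCAAAT. All sequences are given on the plus strand, 5′ to 3′.
Spp1, first start, chr5:104434861-104435160: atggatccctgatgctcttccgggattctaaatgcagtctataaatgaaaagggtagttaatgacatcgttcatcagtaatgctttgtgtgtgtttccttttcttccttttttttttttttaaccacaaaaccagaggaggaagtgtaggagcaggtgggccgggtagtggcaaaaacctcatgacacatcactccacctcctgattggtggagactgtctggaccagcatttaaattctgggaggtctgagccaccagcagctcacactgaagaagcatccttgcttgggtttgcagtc
Spp1, second start, chr5:104435942-104436241: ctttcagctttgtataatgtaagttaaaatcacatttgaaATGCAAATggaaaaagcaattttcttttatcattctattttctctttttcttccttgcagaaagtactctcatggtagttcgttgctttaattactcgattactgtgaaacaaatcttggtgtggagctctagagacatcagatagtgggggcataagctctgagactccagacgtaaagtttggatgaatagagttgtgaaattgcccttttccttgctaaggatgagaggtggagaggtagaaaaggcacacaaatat
Kit, chr5:75574737-75575036: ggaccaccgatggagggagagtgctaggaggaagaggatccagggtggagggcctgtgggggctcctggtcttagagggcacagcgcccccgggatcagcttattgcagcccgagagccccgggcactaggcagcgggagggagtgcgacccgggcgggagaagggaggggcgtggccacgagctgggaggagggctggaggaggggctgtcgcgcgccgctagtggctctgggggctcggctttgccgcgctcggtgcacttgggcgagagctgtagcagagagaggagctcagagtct

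The octamer lies at bases 104435982 to 104435989 of chromosome 5, between exon 1, which ends at 104435196, and exon 2, which starts at 104436375, of the 2 protein-coding transcripts of GENCODE M21 that start at 104435118. Over both strands, the octamer occurs in 1.74% of 32851 RefSeq windows of the same length. The ESRRB element TCAAGGTCA was searched on both strands too, and was in none of the windows printed here, against 0.423% of all windows. The windows also differed in CpG content. The Kit window had 20 CpG sites, with an observed to expected ratio of 0.621, and the Spp1 windows had 3 each, with ratios of 0.195 and 0.306, against a median of 0.384 over all windows. A match in letters describes these windows only.

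Across cells, total counts ranged from 2417702 to 6787261 with a median of 4244480, and 5317 to 10032 genes were detected, with a median of 8404. Pou5f1, which encodes Oct4, had at least 485 counts in every cell. Sox2 was detected in 54 of 61 cells and had at least 10 counts in 50. The naive score, the mean z-score of 17 naive pluripotency genes, ranged from -1.35 to 2.29 SD. Its largest gap, from 0.819 to 1.42, left 10 cells above and 51 below, and these sets are used for description only. The share of counts on chromosome 14 was low in 5 cells, and 4 of them (B05, E01, H03 and H10) lie above the gap. Wells B10, with the fewest genes detected, and F07, with the highest mitochondrial share (4.45%), lie on either side of the gap.

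Jam2 (ENSMUSG00000053062, chromosome 16, 84774123 to 84825928, plus strand, protein coding) was close to an all-or-none transcript. It had at least 1 count in 17 of 61 cells (27.9%, exact Clopper-Pearson 95% interval 17.1% to 40.8%, which covers counting error only). In 7 of those 17 cells the count was between 1 and 9, and in 10 it was 10 or more. Its level as CPM, the count scaled to the library's effective size, was 0 in the lowest and in the median cell and 373 in the highest, in well C07. In the 10 cells above the gap Jam2 ran from 0 to 373 CPM with a median of 57.9, and in the 51 cells below it from 0 to 168 CPM with a median of 0. Of the 10 cells with at least 10 counts, 8 lie above the gap and 2 below, in wells B07 (168 CPM) and B04 (40.3 CPM). The wells without Jam2 above the gap were C02 and B10. The groups overlap through B07 and B04 and through these zeros.

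Kit (ENSMUSG00000005672, chromosome 5, 75574916 to 75656722, plus strand, protein coding) was found over a wider range of scores. It was detected in 21 of 61 cells (34.4%, interval 22.7% to 47.7%) and had at least 10 counts in 17. The median was 0 CPM and the highest value 416 CPM, in H03. Above the gap its levels ran from 0 to 416 CPM with a median of 199, and below the gap from 0 to 97.4 CPM with a median of 0. Of 17 cells with at least 10 counts, 8 lie above the gap and 9 below, and those 9 include the cell in A07, whose score of -1.13 is among the lowest. Amounts were higher above the gap: 7 of the 8 cells above the gap with at least 10 counts of Kit held 69.6 to 416 CPM, and 1, in E01, held 45.7 CPM. Of the cells below the gap, A06, with 97.4 CPM, was the 1 cell past 45.7 CPM.

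Spink1 (ENSMUSG00000024503, chromosome 18, 43728082 to 43737557, minus strand, protein coding) was detected in 18 of 61 cells (29.5%, interval 18.5% to 42.6%), 16 of them with at least 10 counts. Its highest level was 349 CPM, in B10, and the median was 0. Above the gap it ran from 0 to 349 CPM with a median of 48.9, and below the gap from 0 to 250 CPM with a median of 0. Its cells range from A03, with a score of -0.888, to C02, with the third highest score: 7 of the 16 lie above the gap, and F07, F01, C04 and B01, which have the next 4 scores, all held at least 10 counts. The 3 cells above the gap without a count were D05, H10 and C07, which include both cells of highest score.

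Spp1 (ENSMUSG00000029304, chromosome 5, 104435118 to 104441050, plus strand, protein coding) was the most abundant and the most widespread. It had counts in 52 of 61 cells (85.2%, interval 73.8% to 93.0%), and at least 10 counts in 36. The remaining 16 cells with counts held 1 to 9, and whether such low counts come from the cell itself was not tested. The level ran from 0 through a median of 104 to 2863 CPM, in B05. All 10 cells above the gap held Spp1, at 231 to 2863 CPM with a median of 974, while the 51 cells below ran from 0 to 2751 CPM with a median of 12.03. Below the gap 26 of 51 cells held at least 10 counts. Of these, H09 (2751 CPM), F01 (2342 CPM), A10 (2248 CPM) and A07 (2074 CPM) stood as high as the top cells above it. F01 had a score of 0.579 and low chromosome 14 counts. Thus Spp1 had no cell at 0 above the gap, and high levels on both sides of it. Among cells with a score under that of F04 (-0.430), only A07 and A02 (502 CPM) held more than the 188 CPM of G07. A07 also had the lowest mitochondrial share of all cells (0.0543%).

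**Figure D1:**
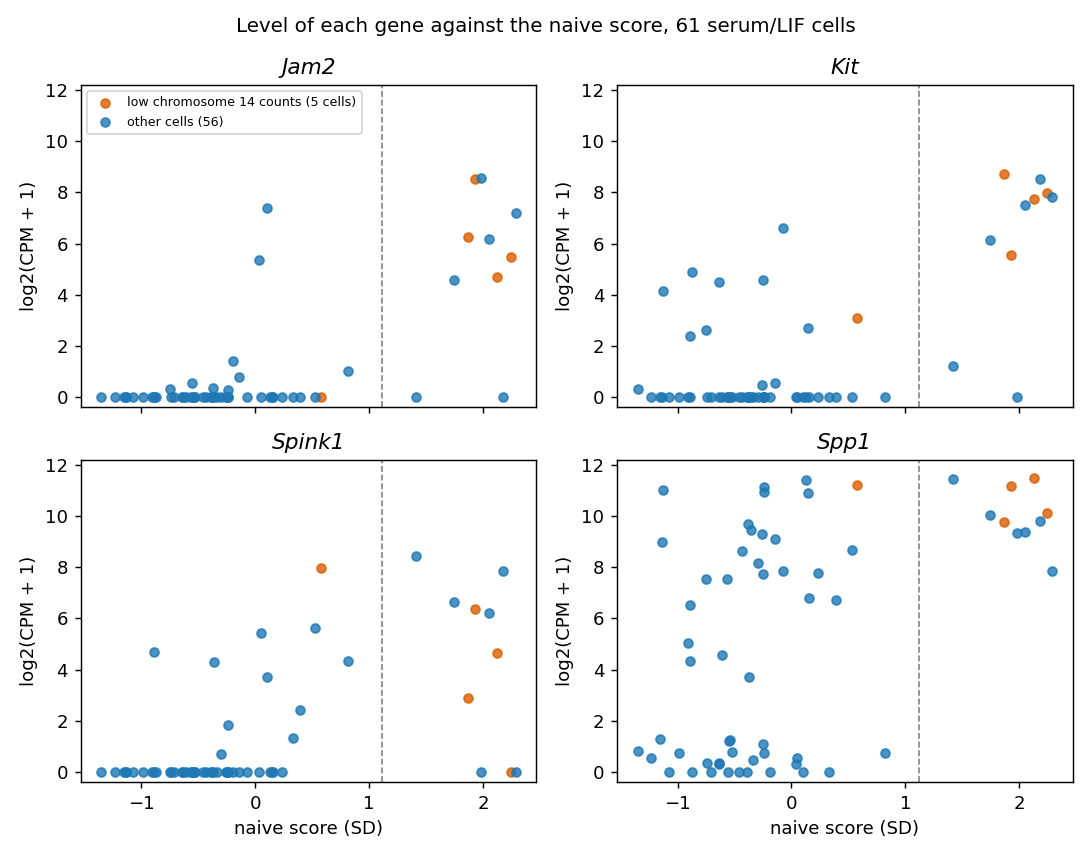
Level of each gene, as log2(CPM + 1), against the naive score in SD, with 1 point per cell. The dashed line marks the middle of the gap between 0.819 and 1.42, and orange points are the 5 cells with low chromosome 14 counts. Spp1 is high in cells on both sides of the line, and 8 of the 10 cells with at least 10 counts of Jam2 lie right of it.

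In an edgeR fit over all 61 cells with the share of genes detected as covariate, Jam2 had a slope of 5.03 log2 units per SD of the score, Kit 2.48, Spink1 2.27 and Spp1 1.12. All 4 were past 1 log2 unit per SD, a size that 3.23% of 10851 genes outside the score passed upward and 10.7% passed downward. The median slope over those genes was -0.06. This count was fixed by the choice of genes and nothing is read from it. Jam2, which passed the filter with exactly 10 cells of at least 10 counts, would not have been measured without the cells where it is high. Spp1 lay just past the limit: its slope was 0.48 with a score over 5 genes, 0.67 within plate rows A to D and 3.97 within rows E to H, and 0.92 without the covariate, so the direction was positive in each while the size was not kept. Kit had slopes of 2.66 in rows A to D and 1.52 in rows E to H, Spink1 1.86 and 4.63, and Jam2 3.57 and 4.22. The cells above the gap in rows E to H are E01, H03 and H10, all with low chromosome 14 counts. In those rows a score above the gap cannot be told apart from low chromosome 14 counts.

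Within the 2 sets of cells the 4 genes differed. Above the gap, slopes were 4.84 for Kit, 1.501 for Jam2, -0.52 for Spp1 and -4.57 for Spink1, where 40.7% of genes passed 1 upward and 35.7% passed -1 downward. Below the gap, slopes were 7.52 for Jam2, 3.16 for Spink1, 1.96 for Spp1 and 1.07 for Kit, where 10.5% of genes passed upward and 16.5% downward. Below the gap, Spearman's rho with the score was 0.472 for Spink1, 0.258 for Jam2, 0.229 for Spp1 and -0.0584 for Kit, over 51 cells of 1 plate. Above the gap, rho was -0.558 for Spink1, 0.158 for Jam2, -0.321 for Spp1 and 0.491 for Kit, over 10 cells. Kit had its higher rho in the 10 cells above the gap, and Spink1 in the 51 below. With so few cells and so many zeros these values describe the cells at hand, and the difference between the sets was not tested.

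Levels between genes were compared per length, with the union of GENCODE M21 exons. The mean level per kilobase was 322 CPM for Spp1, 28.99 for Spink1, 3.64 for Kit and 3.63 for Jam2. Among cells with at least 10 counts of the gene, the median was 358 CPM per kilobase for Spp1, 45.9 for Spink1, 12.3 for Jam2 and 5.13 for Kit. The means of Kit and Jam2 were alike, while Jam2 reached its mean in fewer cells at a higher level. The 5 highest cells held 84.4% of the summed CPM of Jam2, 78.4% of Spink1, 74.2% of Kit and 40.3% of Spp1. Spp1 varied most for its level: its squared coefficient of variation was 8.94 times the median of the 200 genes nearest in mean, or 8.62 times without its highest cell. The same ratio was 3.16 for Jam2, 2.83 for Kit and 2.63 for Spink1, which are values for genes that most cells lack.

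At 10 counts or more, 5 cells held all 4 genes (B05, B09, C05, E01 and H03), and all 5 lie above the gap. Another 4 cells held 3 of them: C02, D05 and H10 above the gap and F01 below it. A pair of the genes was found in 12 cells, of which 2 lie above the gap and 10 below, among them A07, A03 and C03 with scores of -1.13, -0.888 and -0.887. There was 1 gene in 23 cells and none in 17, and those cells all lie below the gap. Jam2 and Kit shared 7 cells, which is 70% of the Jam2 cells and 41.2% of the Kit cells, where the product of their shares gives 2.79 cells. Jam2 and Spink1 shared 6 cells against a product of 2.62, Kit and Spink1 7 against 4.46, Kit and Spp1 14 against 10.03, Spink1 and Spp1 12 against 9.44, and Jam2 and Spp1 8 against 5.90. At 1 count or more, Jam2 and Spp1 shared 14 cells, against a product of 14.5, and Jam2 and Kit 9 against 5.85. Without the cells of low chromosome 14, Jam2 and Kit shared 5 cells at 1 count, against 3.71, and Kit and Spink1 4, equal to the product, where over all cells they shared 8 against 6.20.

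Inside each set, sharing was set beside the product of the shares in that set. Above the gap 8 of 10 cells held Jam2 and 8 held Kit, and below it 2 of 51 held Jam2. The shared numbers could therefore move little, and nothing is read from how close they lie to the product. Above the gap Jam2 and Kit shared 7 cells, where the product is 6.40, and below it 0 cells, where the product is 0.353. Kit and Spink1 shared 6 cells above the gap against a product of 5.60, and 1 cell below it against 1.59. Jam2 and Spink1 shared 5 cells above the gap against 5.60, and 1 cell below it against 0.353. Jam2 and Spp1 shared 8 cells above the gap against a product of 8, a match fixed in advance because all 10 cells there held Spp1. Below the gap they shared 0 cells against 1.02: both cells with Jam2 there, B07 and B04, had 0 and 1 counts of Spp1. Levels inside the upper set ran against each other for Jam2 and Spink1, with a rho of -0.702 over 10 cells: C02 and B10 had 232 and 349 CPM of Spink1 and no Jam2, and C07 had the highest Jam2 and no Spink1. That rho was the lowest among the pairs, and the others ran from -0.517 for Jam2 and Spp1 to 0.497 for Spink1 and Spp1. It rests in part on zeros and on B10, the cell with the fewest genes detected. As all 4 genes were examined for their relation to the score, sharing over all cells is a description.

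**Figure D2:**
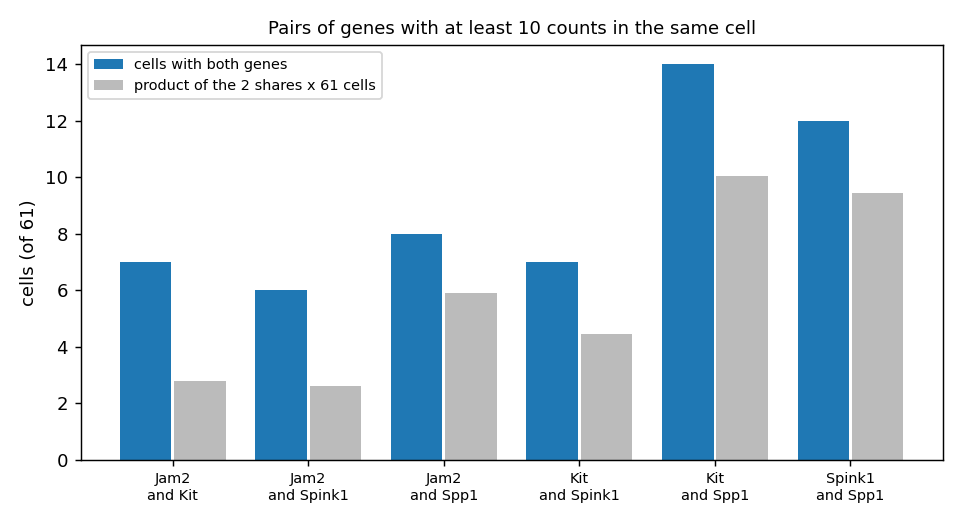
Number of cells, of 61, in which both genes of a pair had at least 10 counts (blue), beside the number given by the product of the shares of cells with each gene (grey). At this limit of 10 counts the blue bar is the higher in each of the 6 pairs, from 6 cells against 2.62 for Jam2 and Spink1 to 14 against 10.03 for Kit and Spp1.

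The receptors and partners of these proteins were examined in the same cells, from lists chosen with earlier results known. A gene is counted here as past the limit when its slope reached 1 log2 unit per SD, beside 3.23% of all genes upward and 10.7% downward. The filter asks for 10 counts in 10 cells, and 10 cells lie above the gap. A gene confined to those cells had to be in all 10 to be measured, while a gene confined below needed 10 of 51. The counts of slopes in this and the later lists, and over all genes, carry this limit. Of 8 measured genes for osteopontin receptors and partners, 5 had a slope of -1 or lower and 0 of 1 or higher, with a median of -1.44. With limma-trend, or in plate rows A to D, 2 were at -1 or lower. Over all 10851 genes, 316 were at -1 or lower with limma-trend and 1311 in rows A to D. Cd44, the hyaluronan receptor that also binds osteopontin, had a slope of -3.44, and the metalloproteinase genes Mmp2 and Mmp14, the second on chromosome 14, had -2.88 and -2.41. The integrin genes Itgav and Itgb1 had slopes of -1.28 and -0.69. Cd44 was at 0 counts in all 10 cells above the gap, which allows up to 30% of such cells to hold a count (3 of 10, for counting error only) and does not bound the share that express the gene. Cd44 had at least 10 counts in 13 of 51 cells below the gap, and passed the filter only through those cells. Spp1 and Cd44 shared 8 cells at 10 counts or more, where the product of their shares gives 7.67. Itgav ran from 0 to 14.8 CPM above the gap with a median of 0.570, and from 0 to 245 CPM below it with a median of 10.5. Itgb1, the common beta subunit, was detected in every cell, at 1.16 to 276 CPM above the gap with a median of 103, and 16.7 to 1314 CPM below it with a median of 445.

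Kitl, the ligand of KIT, was found under the same growth condition and in part in the same cells. It had at least 10 counts in 12 cells, 4 above the gap and 8 below, and a slope of 0.31. Kit and Kitl shared 7 cells, where the product of their shares gives 3.34. Of 24 measured genes of KIT signalling, 1 had a slope of 1 or higher and 4 of -1 or lower, with a median of -0.17. Gab1, an adaptor of receptor tyrosine kinases, had a slope of 1.08, and Dok2 (-2.91, on chromosome 14), the Src-family kinase gene Lyn (-2.16), Fyn (-1.26) and the phosphatase gene Ptpn11 (-1.14) had negative slopes. No gene of the list was at 1 or higher without the covariate or with a score over 5 genes. Over all 10851 genes these were 207 and 259. In rows A to D 2 genes were at 1 or higher and 8 at -1 or lower, and in rows E to H 6 and 7. Over all genes, 589 were at 1 or higher and 1311 at -1 or lower in rows A to D. In rows E to H the numbers over all genes were 882 and 2548. At -1 or lower there were 2 genes without the covariate and 1 with limma-trend, beside 1143 and 316 of all genes.

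Other junction genes did not share the pattern of Jam2. Of 19 measured genes for JAM adhesion and tight junctions, 7 had a slope of -1 or lower and 0 of 1 or higher, with a median of -0.54. Pard6b, a polarity gene, had -2.93, and the tight junction genes Marveld2 and Cldn7 had -2.49 and -2.001. With limma-trend 4 genes of the list were at -1 or lower, and in plate rows E to H 13. Over all 10851 genes the numbers were 316 with limma-trend and 2548 in rows E to H. Jam3, whose protein is a known partner of JAM-B, had at least 10 counts in 12 cells and a slope of -0.72. It shared 1 cell with Jam2, where the product of their shares gives 1.97, so nothing is read from this sharing. F11r, which encodes JAM-A, had at least 10 counts in 57 cells, at 0 to 364 CPM above the gap and 0 to 1076 CPM below it, with a slope of -0.23. Tjp1, which encodes the scaffold protein ZO-1, had a slope of -0.54.

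Most genes listed around Spink1 did not pass the filter on counts. Of 9 measured genes, from 24 listed, of the SPINK family, trypsin-like proteases, their inhibitors and EGF receptors, 4 had a slope of -1 or lower, or 1 with limma-trend, and 0 had one of 1 or higher. With limma-trend 316 of all 10851 genes were at -1 or lower. Prss1, Prss2 and Prss3, which encode trypsinogens, had 0 counts in every cell. Egfr, the gene of a receptor that human SPINK1 is reported to bind, had a slope of -3.46, 0 counts in all 10 cells above the gap and at least 10 counts in 18 of 51 cells below it. Egfr passed the filter only through the cells below. Erbb2 had a slope of -2.02 and Spint1, a membrane-bound protease inhibitor, -1.24.

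Among 28 other measured surface and secreted genes, 2 had a slope of 1 or higher: Alpl, the alkaline phosphatase long used as a stem cell stain (1.57), and Lifr, the receptor of leukaemia inhibitory factor (1.08). Of the list, 1 gene was at 1 or higher without the covariate, and 1 with a score over 5 genes. Over all 10851 genes these were 207 and 259. Lefty1 (-2.98), Fgf5 (-2.91) and Prom1 (-2.35) were among 6 with -1 or lower. Pecam1, an adhesion gene of endothelium and of naive embryonic stem cells, did not pass the filter. It had at least 10 counts in 5 cells, 4 above the gap and 1 below, and all 5 were cells with at least 10 counts of Jam2. The product of the shares of Pecam1 and Jam2 gives 0.82 cells.

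**Figure D3:**
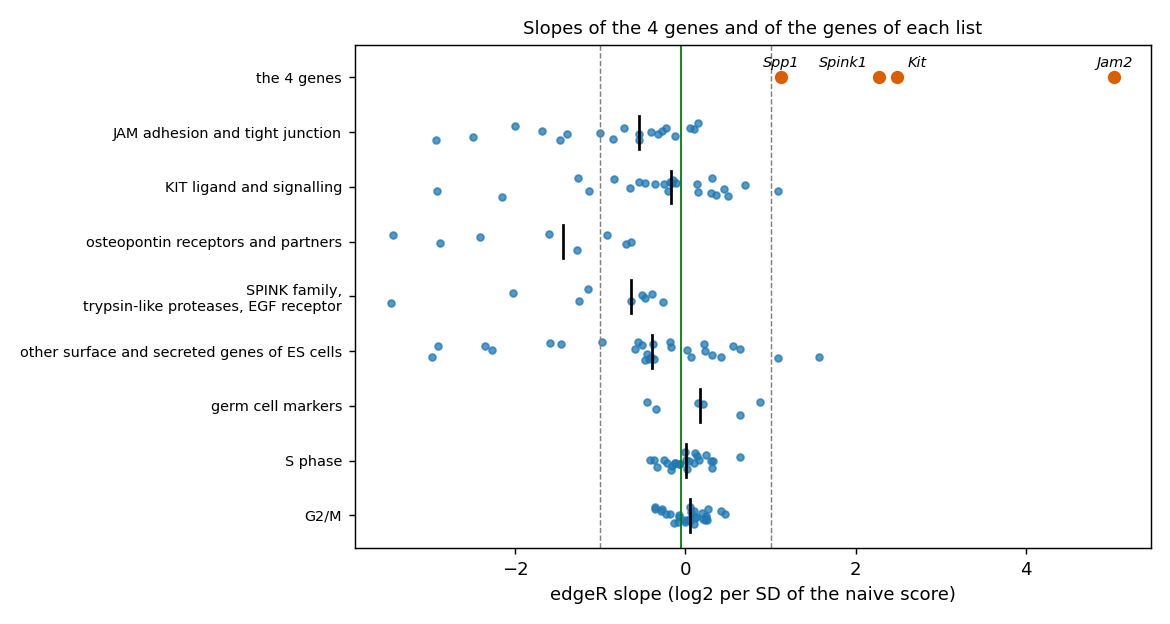
Slope on the naive score, in log2 units per SD, for the 4 genes (orange, top row) and the measured genes of each list (blue). Black bars are list medians, the green line is the median over all genes (-0.06) and dashed lines are at 1 and -1; 5 of 8 osteopontin receptor and partner genes lie left of -1.

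**Figure D4:**
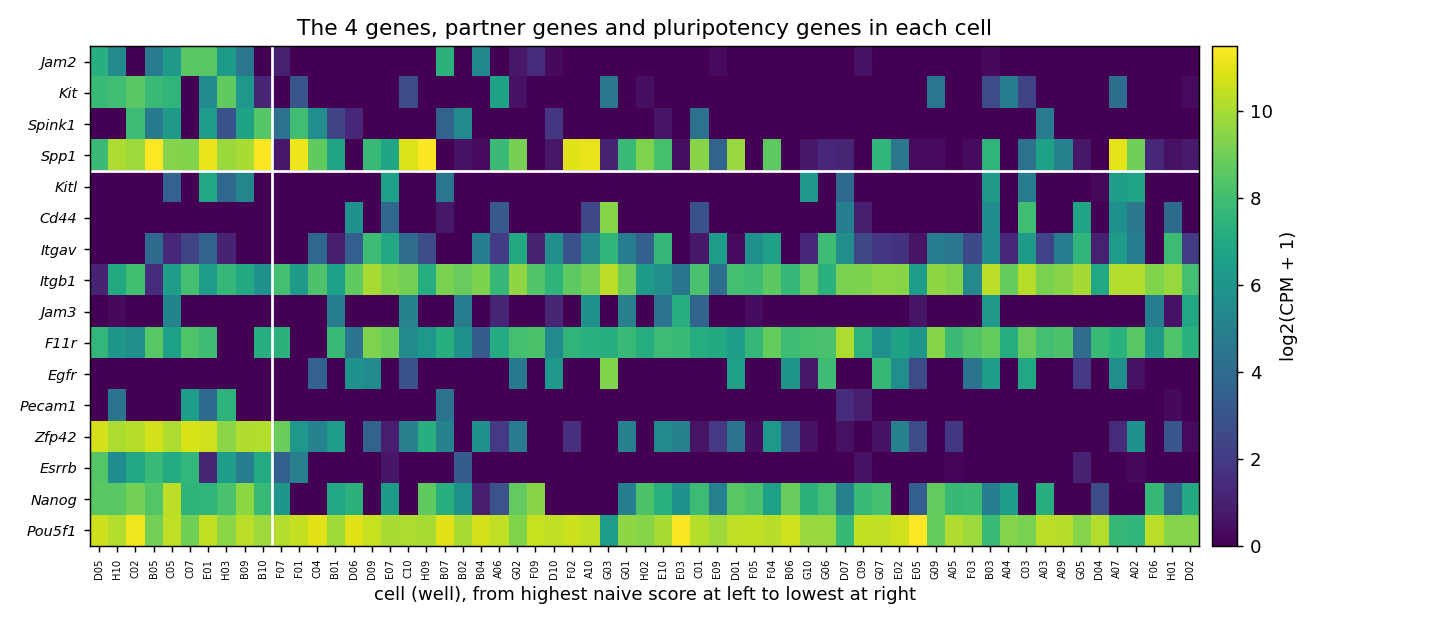
Level in each cell, as log2(CPM + 1), for the 4 genes (above the white line), their partner genes and pluripotency genes; columns are 61 cells ordered from the highest naive score at left, and the vertical line marks the gap. The 10 cells at left all hold Spp1 and the score gene Zfp42 and have no Cd44 or Egfr.

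Measures that did not enter the choice of genes were set beside the levels, within each set. Below the gap, Spink1 had a rho of -0.391 with the share of counts on chromosome 14, where the quartiles over 10868 genes were -0.108 and 0.123. Its rho with the mitochondrial share was 0.279 and with the S phase list 0.249. Kit had a rho of 0.280 with total counts and -0.255 with the mitochondrial share, and the corresponding quartiles over all genes were -0.110 to 0.0979 and -0.121 to 0.0755. Jam2 and Spp1 had values between -0.180 and 0.178 for all 6 measures. Over the 10 cells above the gap Spp1 had a rho of -0.830 with the number of genes detected and -0.806 with the G2/M list. In those cells the quartiles over all genes were -0.0750 to 0.415 and -0.0909 to 0.395. The score itself moved with some of these measures. Above the gap its rho was -0.552 with total counts and 0.358 with the mitochondrial share, and below the gap it was 0.335 with the mitochondrial share and -0.294 with the chromosome 14 share. The part of these measures in the levels and slopes was not tested. All 24 S phase and 30 G2/M genes had slopes on the score between -1 and 1.

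All 5 cells with low chromosome 14 counts held at least 10 counts of Kit and of Spp1, and 4 of them held Jam2 and 4 Spink1. Without these cells the slope was 3.92 for Jam2, 2.03 for Kit, 2.50 for Spink1 and 1.13 for Spp1. By plate position, Spink1 was detected in 39.4% of 33 cells in rows A to D and 17.9% of 28 cells in rows E to H. Kit was detected in 39.4% and 28.6%, Jam2 in 30.3% and 25%, and Spp1 in 78.8% and 92.9% of those cells.

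Kit and Jam2 also mark other cell types, whose markers were therefore measured. Of 10 endothelial and blood markers, 0 passed the filter and Tie1, Emcn and Ptprc were at 0 in every cell. Their summed level ran from 0 to 158 CPM above the gap with a median of 2.14, and from 0 to 280 CPM below it with a median of 0. With a filter of 1 count in 3 cells, 3 of 6 of these markers had slopes of 1 or higher and 0 of -1 or lower. That filter gave 1236 of 16388 genes at 1 or higher. Of 10 mast cell and melanocyte markers, 6 were at 0 in every cell, among them Cpa3, Tyr and Dct, and the sum ran from 0 to 42.3 CPM above the gap and from 0 to 66.9 CPM below. Of 9 germ cell markers other than Kit, 6 were measured and 0 had a slope past 1 in either direction, with sums from 0 to 545 CPM and a median of 260.3 above the gap, and from 0 to 689 CPM and a median of 128 below. With the filter of 1 count in 3 cells, 2 of 9 were at 1 or higher. Of the 6, 2 were at 1 or higher in rows E to H and 1 with a score over 5 genes. At -1 or lower there was 1 in rows E to H and 1 without the cells of low chromosome 14. Of all 10851 genes, 882 were at 1 or higher in rows E to H and 259 with a score over 5 genes. At -1 or lower were 2548 in rows E to H and 1372 without the cells of low chromosome 14. Fibroblast markers, of which 0 of 10 passed the filter, summed to 0 to 3.27 CPM above the gap and 0 to 231 CPM below. Primitive endoderm markers, 2 of 13 measured, summed to 0 to 127 CPM above and 0 to 222 CPM below, and trophectoderm markers, 3 of 8 measured, to 0 to 21.6 CPM above and 0 to 576 CPM below. All 5 of those measured had slopes past -1: Col4a1 (-3.35) and Dab2 (-1.21) for primitive endoderm, and Cdx2 (-3.41), Eomes (-3.02) and Gata3 (-1.97) for trophectoderm. With limma-trend 0 of the 5 were at -1 or lower, beside 316 of all 10851 genes. The part of these markers in the levels of the 4 genes was not tested. Of 7 two-cell-like markers in the table, 0 passed the filter and 4 were at 0 in every cell.

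The genes most like each of the 4 were found by Spearman's rho of log2(CPM + 1) over all 61 cells, as the 5 highest among genes past the filter. Those cells share a growth condition and a plate and fall into the sets described, so the second value given for each gene is rho over the 51 cells below the gap. For Jam2 they were Rogdi (rho = 0.616, and 0.640 below the gap), Morc1 (0.592 and 0.374), Tdrd12 (0.588 and 0.392), Tet1 (0.585 and 0.384) and Halr1 (0.579 and 0.506). Morc1 and Tdrd12 are known for silencing transposons in the germ line, and Tet1 oxidises 5-methylcytosine. Morc1 had at least 10 counts in 14 cells, which include all 10 cells with at least 10 counts of Jam2, and Rogdi and Morc1 lie on chromosome 16 as Jam2 does. For Kit they were Epop (0.572 and 0.386), whose protein associates with Polycomb complex PRC2, Tdrp (0.549 and 0.450), the translation factor gene Eif2s2 (0.542 and 0.288), the RNA exosome gene Exosc5 (0.535 and 0.311) and Nr0b1 (0.525 and 0.243), which is itself a gene of the score.

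For Spink1 the leading genes were Zfp987 (0.589 and 0.493), Rpl39l (0.584 and 0.433), the myosin light chain gene Mylpf (0.577 and 0.424), Platr16 (0.570 and 0.443) and Gm13230 (0.562 and 0.437), of which Zfp987, Platr16 and Gm13230 lie on chromosome 4. For Spp1 they were Gm12346 (0.581 and 0.474), the score gene Zfp42 (0.548 and 0.344), the chaperone gene Hsp90aa1 (0.533 and 0.411), Taf1d (0.526 and 0.470) and the metallothionein gene Mt2 (0.521 and 0.355). Of 36 cells with at least 10 counts of Spp1, 25 held at least 10 counts of Zfp42, which had them in 33 cells; the product of their shares gives 19.5. Esrrb had at least 10 counts in 12 cells, 9 above the gap and 3 below. It is a gene of the score too, so this split is in part set by the score.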

How the data were processed

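Messenger RNA and DNA of single cells were parted by G&T-seq and cDNA libraries were made with Nextera XT, per the labels' protocols. The deposited raw table holds whole-number counts per gene for 61 serum/LIF cells. The submitters' processing notes name the build GRCm38 and the tools bedtools 2.19.1, DESeq2, GSNAP and SAMtools 0.1.18. How reads were assigned to genes, and whether by strand, was not given in the sources used here. Overlapping genes are therefore uncertain (Jam2 and Spp1 each overlap 1 predicted gene on the same strand). The labels name no molecular identifiers, so intervals cover counting error only. The deposited normalized table was not used, because within a column the ratio of its values to the raw counts varies 3.46-fold.

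Symbols were found for 34880 of 36205 genes; 95 ERCC rows, with 14 counts in all, were left out. The filter kept genes that reached 10 counts in 10 or more cells, and CPM used effective library sizes from edgeR 4.0.16 (TMM, R 4.3.3). For the naive score, log2(CPM + 1) was turned into z-scores and averaged over the 17 of 20 listed genes that passed the filter, then scaled to an SD of 1. Slopes are glmQLFit coefficients with the share of genes detected as covariate. The code was also run on counts simulated from the kind of model that is fitted. Such a run cannot show whether that model holds for these cells. The slopes are on a log scale and depend, for genes at 0 in most cells, on few cells. Low chromosome 14 means a share more than 3.5 scaled median absolute deviations under the median. The 4 genes and the gene lists were chosen with earlier results of these data known. Genes named are the 4 genes, the 5 most like each, the 3 with the largest slope past 1 in each list and 14 partner and pluripotency genes, of which Spink3 is an older name of Spink1; Sox2 and other genes named singly beyond these were chosen after their values were seen. Alternatives were DESeq2 1.42.0 size factors, limma 3.58.1, other filters, covariates, scores and cells.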

Additional observations from a re-analysis of the deposited data

How the results depend on the processing

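Slopes of all 4 genes stayed positive under the 10 alternatives run for each. The fits within the 2 sets of cells are not among these 10, and above the gap the slope was -4.57 for Spink1 and -0.52 for Spp1. As the genes were chosen as rising with naive pluripotency, the positive sign is a description. A slope or a count of genes was taken as moved when it changed by more than 1.5 times. With limma-trend on log2(CPM + 1), slopes were 1.79 for Jam2, 1.34 for Spink1 and 2.35 for Spp1, and the cause was not tested. For Spp1 the slope was under 1 with a score over 5 genes (0.48), in rows A to D (0.67) and without the covariate (0.92). In rows E to H slopes were 3.97 for Spp1, 4.63 for Spink1 and 1.52 for Kit, and the cause was not tested. The cells above the gap in those rows, E01, H03 and H10, all had low chromosome 14 counts, and the 2 cannot be told apart there. Asking for 10 counts in place of 1 left Jam2 in 10 cells and Spp1 in 36, and both of them in 8 cells in place of 14. Spink1 was detected in 17.9% of cells in rows E to H, against 29.5% of all cells. Thinning each cell to 2417702 counts, leaving out B10 and F07, and leaving out the cells of low chromosome 14, which was added for detection after seeing the data, kept each count of cells and pairs within the wide binomial interval of its share, although without the last of these cells Kit and Spink1 shared 4 cells in place of 8, and Jam2 and Kit 5 in place of 9.

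Over all genes, 351 had slopes of 1 or higher and 1164 of -1 or lower. These were 1236 and 2759 of 16388 genes with a filter of 1 count in 3 cells; 207 were at 1 or higher without the covariate and 316 at -1 or lower with limma-trend. In the 33 cells of rows A to D, 589 were at 1 or higher and 1311 at -1 or lower. In the 28 cells of rows E to H, 882 were at 1 or higher and 2548 at -1 or lower. The cause of these differences was not tested. By Pearson's r in place of Spearman's rho, 0 of the 5 genes most like Jam2, 0 for Kit, 3 for Spink1 and 3 for Spp1 were shared. No paired analysis was possible because all cells belong to 1 group and no comparison between groups was made.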
